A study of Zostera marina with 23 samples.

Results

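The 200 genes described here stood lower in leaf than in root, male flower and female flower of eelgrass when each tissue was represented by the median of its libraries. They were selected on the measured values. Of 22733 gene identifiers, 196 with the prefixes ZosmaC or ZosmaM were set aside. For each of the other 22537, the medians of the 4 tissues on the log2(scaled fragments + 1) scale were sorted and divided at their widest gap. Leaf alone lay below that gap in 1926 genes. The lowest of the 3 upper medians was at least 6 in 1128 of these, and 502 of them had a gap of at least 2. In 477 the medians of the later and earlier female libraries also lay within 2 of each other, and the 200 with the widest gaps were kept. Since leaf against the other tissues chose the genes, that contrast is described without a test. Because the files carry identifiers alone, no function or chromosome position is stated for a gene.

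Eelgrass, Zostera marina, is a flowering plant that lives submerged in seawater. Its ribbon-like leaves carry out photosynthesis and also take up nutrients from the water, while its roots grow in sediment that is often without oxygen. Male and female flowers are borne on the same spadix inside a sheath, and pollen is carried by water. A transcript low in leaf and present in the other organs is shared by tissues that differ widely in function.

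The wild shoots, for which no genotype or genetic change is stated, were collected in the field in winter and planted in seawater tanks. Flowering was brought on by raising the temperature from 5 to 15 °C and extending daylight from 12 to 16 hours, and all groups shared this treatment. The 23 libraries comprised leaf (n = 6, labelled vegetative in the titles), root (n = 4), male flower (n = 7) and female flower (n = 6). Of the female libraries, 3 were labelled early and 2 late, and 1, called early replicate 3 here, had an early title and a late tissue label. It was kept as female flower. Depth, estimated from the value of 1 fragment in each library, was 5696822 to 13678504 fragments. The labels do not say whether replicates came from separate plants, so the spread between them may be in part technical. In bulk tissue, fewer cells of a type and less RNA per cell cannot be told apart.

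The label "low in leaf" held in 4 of the 6 leaf libraries. The median level of the 200 genes was 2.74 in leaf replicate 0, 2.74 in replicate 2, 2.58 in replicate 3 and 2.58 in replicate 5, on the log2(scaled fragments + 1) scale. It was 8.37 in leaf replicate 1 and 6.66 in leaf replicate 4. Leaf replicate 1 thus stood within the range of the male flower libraries, and leaf replicate 4 stood between the 4 low leaf libraries and the flowers. In fragments before scaling, the median gene had 4 to 5.50 in the 4 low libraries, 111 in leaf replicate 4 and 570 in leaf replicate 1.

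Root had a library apart in the other direction. The same median was 8.86 in root replicate 0, 8.64 in root replicate 1, 5.68 in root replicate 2 and 7.51 in root replicate 3. Male flower ran from 8.11 to 8.93 and female flower from 8.71 to 8.95. Root replicate 2 was therefore the lowest of the 17 libraries outside leaf, below leaf replicates 1 and 4.

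**Figure D1:**
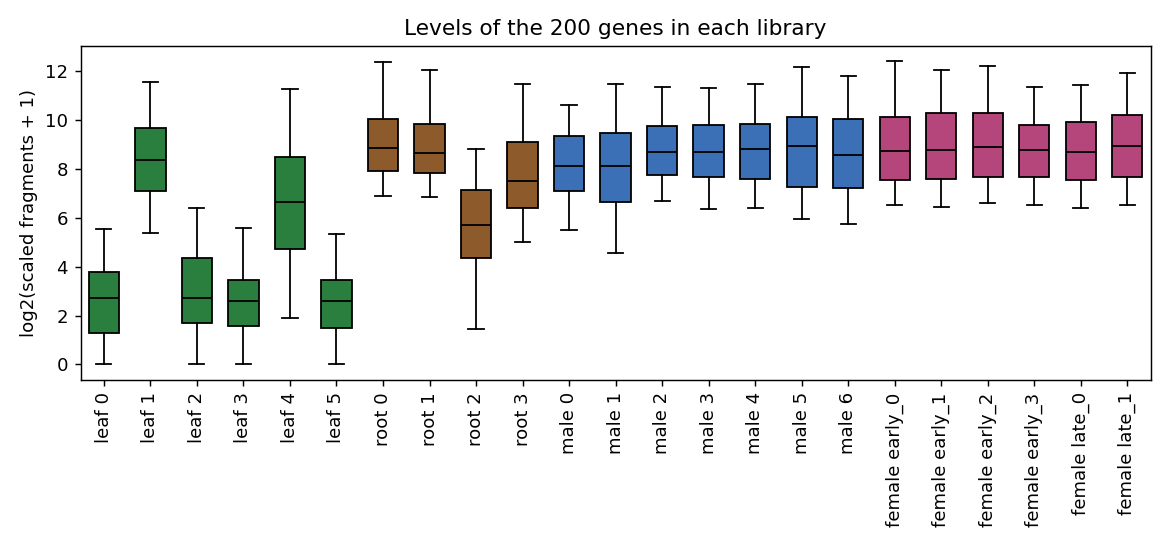
Level of the 200 genes in each of the 23 libraries, on the log2(scaled fragments + 1) axis; the line is the median gene, the box the range from the 25th to the 75th percentile and the whiskers the 5th to 95th percentile. Leaf replicates 1 and 4 (medians 8.37 and 6.66) stand above the other leaf libraries (2.58 to 2.74), and root replicate 2 (5.68) stands below the other roots.

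Summed over the 200 genes, the share of all scaled fragments was 0.0272% in leaf replicate 0, 1.95% in replicate 1, 0.0290% in replicate 2, 0.0216% in replicate 3, 0.997% in replicate 4 and 0.0216% in replicate 5. Root replicates 0 to 3 gave 2.78%, 2.42%, 0.473% and 1.60%. Male flower gave 1.38% to 2.35% and female flower 2.36% to 3.02%. These sums weigh abundant genes most. Zosma86g00590 alone held 12569 to 177284 scaled fragments in male flower and 20408 in leaf replicate 4. Leaf replicate 1 exceeded several male libraries in the summed share, and leaf replicate 4 exceeded root replicate 2. The scaled total was 7893909 in leaf replicate 1 and 10845975 to 25737103 in male flower. A larger share is therefore not a larger summed level between these tissues.

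The division ran through most of the 200 genes and did not rest on a few abundant ones. Leaf replicate 1 lay above the middle of the gap, halfway in log2 between the leaf median and the lowest of the other medians, in 195 genes, and leaf replicate 4 did so in 139. The count was 5 genes in leaf replicate 2 and 0 in leaf replicates 0, 3 and 5. Leaf replicate 1 even reached the lowest upper tissue median in 138 genes, and leaf replicate 4 in 58. Root replicate 2 lay below the middle in 86 genes, against 0, 0 and 5 in root replicates 0, 1 and 3.

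Across all 17445 genes tested, those that reached 10 scaled fragments in 2 or more libraries, these libraries also stood apart, but in a smaller share of genes. Leaf replicate 1 was at least 4-fold above the median of the other leaf libraries in 23.1% of the genes tested and in 196 of the 200. Leaf replicate 4 was so in 15.3% of all and in 154 of the 200. Root replicate 2 was at least 4-fold below the other roots in 17.1% of all and in 143 of the 200. The selection used these libraries, so the counts over the 200 are a description.

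All 6 leaf libraries lay below every other library in 12 of the 200 genes, against 0.739% of the genes tested. Leaving out leaf replicates 1 and 4 was decided once their values were known. The 4 remaining leaf libraries then did so in 160 of the 200, against 9.31% of all. Without root replicate 2 as well, the number was 187, against 11.8% of all. The selection rule fixed these differences, and the counts show only how far single libraries carry them.

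**Figure D2:**
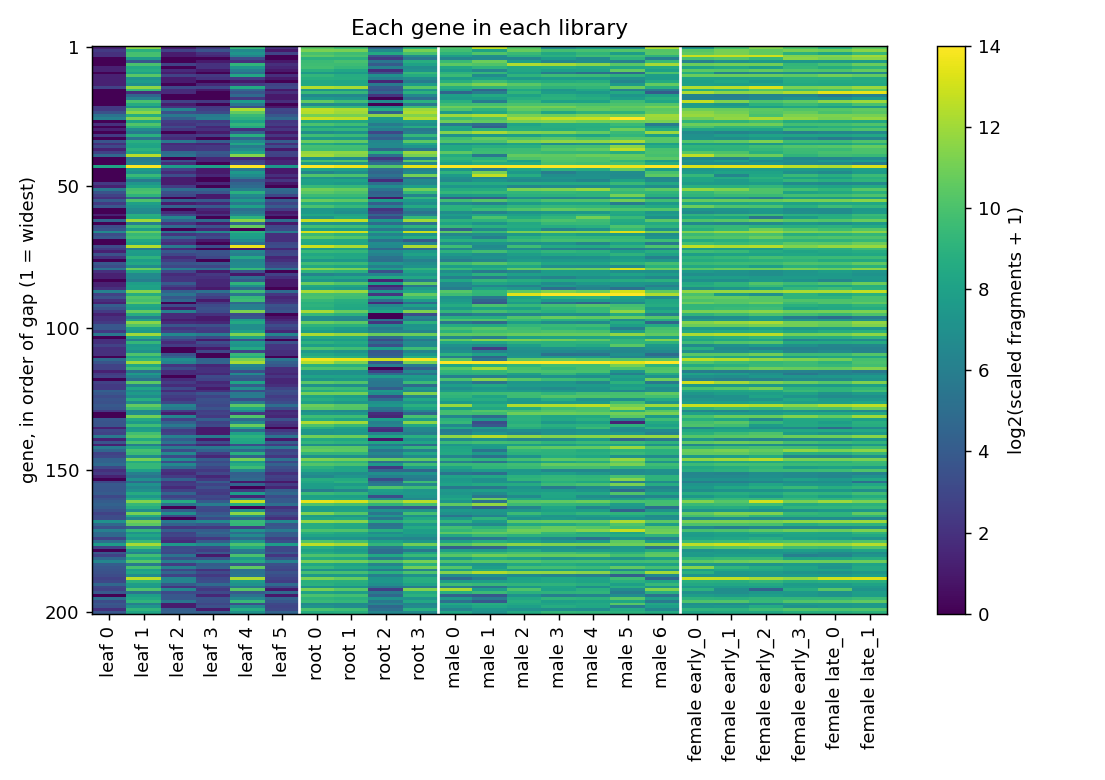
Each of the 200 genes (rows, ordered by the width of the gap, widest at the top) in each library (columns), coloured by log2(scaled fragments + 1). The columns of leaf replicates 1 and 4 are bright over most rows, and that of root replicate 2 is dark over many.

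The share of genes in which root replicate 2 departed was nearly the same whether or not leaf replicate 4 did. Of the 139 genes in which leaf replicate 4 lay above the middle of the gap, 60 (43.2%) had root replicate 2 below it. Of the other 61 genes, 26 (42.6%) did. Leaf replicate 1 lay above the middle in all 139 of the former and in 56 of the latter. These libraries entered the medians that set the middle and selected the genes. The counts are therefore a description, and a link between the libraries was not tested.

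Of the lists selected in the same way as high in 1 tissue alone, those of female flower, root and leaf moved in the same libraries, and that of male flower did not. The 200 genes high in male flower alone held 10.7% to 28.4% of scaled fragments in male flower, 0.0145% in leaf replicate 1, 0.0233% in leaf replicate 4 and 0.0103% to 0.0492% in the other leaf libraries. In female flower they held 0.815% in early replicate 0 and 0.0223% to 0.0394% in the other libraries. The 200 genes high in female flower alone held 2.46% to 4.18% of scaled fragments in female flower, 1.40% in leaf replicate 1, 0.809% in leaf replicate 4 and 0.0101% to 0.132% in the other leaf libraries. Of these 200 female-flower genes, 188 reached 10 scaled fragments in leaf replicate 1, 117 in leaf replicate 4 and 22 to 45 in the others. Those at 0 numbered 4 in leaf replicate 1, 30 in leaf replicate 4 and 75 to 111 in the others. Both leaf libraries with high levels of the leaf-low genes therefore also held the higher levels of female-flower genes. In root replicates 0 to 3 the share of these genes was 0.217%, 0.190%, 0.0171% and 0.0275%, and 124, 119, 32 and 48 of them reached 10 scaled fragments. Root replicates 2 and 3 were thus low in them, as they were in the leaf-low genes.

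The 200 genes high in root alone behaved differently in size. They held 0.192% of fragments in leaf replicate 1, 0.427% in leaf replicate 4 and 0.0046% to 0.0065% in the other leaf libraries, against 3.96%, 4.15%, 1.06% and 4.30% in root replicates 0 to 3. In leaf replicates 1 and 4, 26 and 37 of them reached 10 scaled fragments and 68 and 63 were at 0, while in the other leaf libraries 9 to 12 reached it and 79 to 99 were at 0. Leaf replicate 4 had the larger root share and leaf replicate 1 the larger female-flower share.

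The 200 genes high in leaf alone moved the opposite way. Their share was 7.24%, 1.67%, 6.61%, 7.47%, 3.40% and 8.07% in leaf replicates 0 to 5, and 0.134%, 0.164%, 0.703% and 0.247% in root replicates 0 to 3. Their median level was 7.70 in leaf replicate 1, 9.50 in leaf replicate 4 and 10.59 to 10.88 in the others, in log2(scaled fragments + 1). Leaf genes were thus lowest in leaf replicate 1 among the leaf libraries and highest in root replicate 2 among the roots. These lists were selected on the same libraries, and their part in the levels of the leaf-low genes was not tested.

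**Figure D3:**
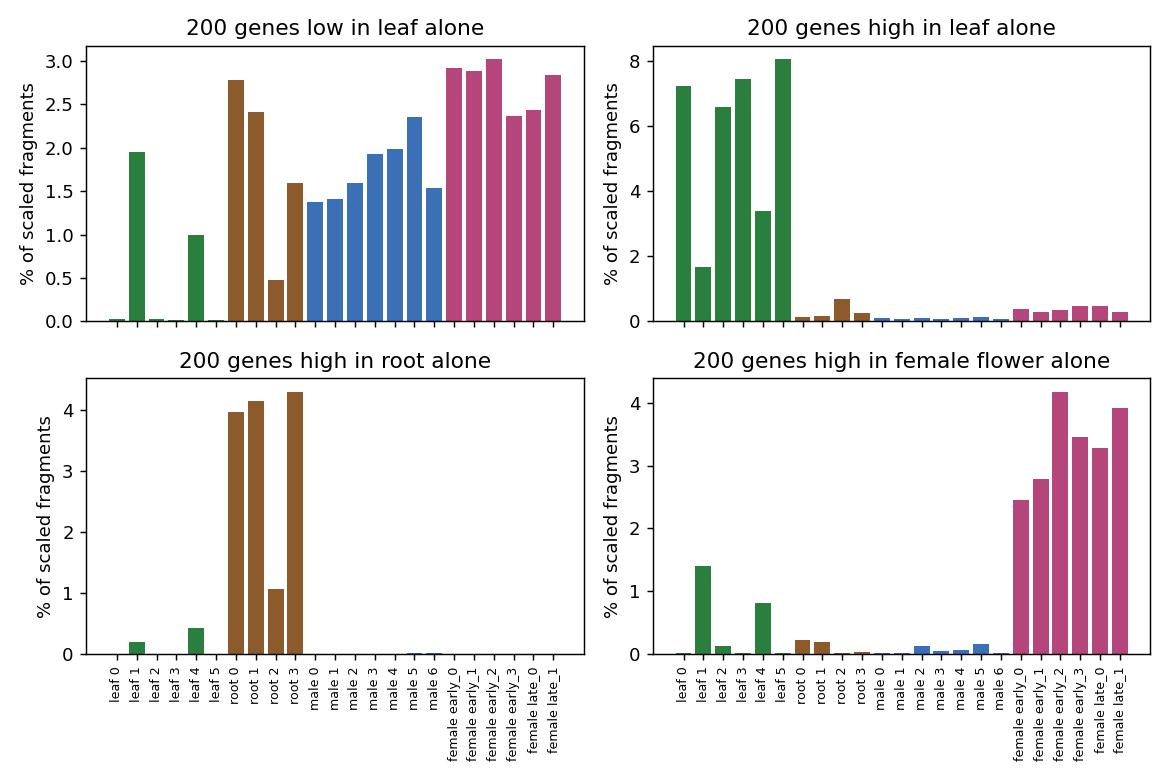
Percent of all scaled fragments held in each library by the 200 genes low in leaf alone and by 3 lists of 200 genes each, high in leaf, root or female flower alone; each panel has its own linear axis from 0. Leaf replicates 1 and 4 hold 1.95% and 0.997% in leaf-low genes and 1.40% and 0.809% in female-flower genes, while their share of leaf genes is 1.67% and 3.40%.

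The libraries that stood apart each correlated most with a different tissue over the 200 genes. Across the 200 genes, which are not independent replicates, the levels in leaf replicate 1 had a Pearson correlation of 0.762 with the female flower medians, 0.614 with root, 0.526 with the other leaf libraries and 0.331 with male flower. For leaf replicate 4 the values were 0.637 with root, 0.585 with female flower, 0.447 with leaf and 0.356 with male flower. Root replicate 2 gave 0.638 with leaf, 0.469 with the other roots, 0.365 with female flower and 0.250 with male flower. For comparison, root replicates 0, 1 and 3 gave 0.802, 0.809 and 0.773 with the other roots and 0.680, 0.674 and 0.613 with leaf. Root replicate 2 alone among the roots had a higher value with leaf than with the other roots. Its value with leaf lay between those of the other roots. Its levels lay a median of 2.44 in log2 above the leaf medians, against 4.35 to 5.71 for root replicates 0, 1 and 3. The cause was not tested. Leaf replicate 2, a low leaf library, gave 0.665 with root and 0.580 with leaf, so leaf replicate 4 was not alone in a higher value with root than with leaf. Leaf replicates 0, 3 and 5 gave 0.511, 0.577 and 0.504 with root and 0.632, 0.692 and 0.680 with leaf. By rank (Spearman correlation), leaf replicate 4 gave 0.619 with root and 0.598 with female flower, and leaf replicate 1 gave 0.806 with female flower.

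Genes low in another organ alone were examined in the same way. The 92 genes low in root alone had a median standard deviation of 0.762 in log2 over the 4 root libraries, and 2 to 15 of the 92 lay above the middle of their gap in a root library. For 200 genes low in male flower alone, the median standard deviation over male libraries was 1.14 and the number above the middle was 2 to 46. For the 200 leaf-low genes the standard deviation over leaf libraries was 2.63. These lists differ in gap and in number of libraries, and the difference was not tested.

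The gap between the leaf median and the lowest upper median ran from 3.28 to 7.19 in log2, or 9.69-fold to 146-fold, with a median of 4.27 (19.3-fold). Zosma241g00270 had the widest. It stood at 1.13, 3.35 and 3032 scaled fragments as the lowest, median and highest leaf library, with 650 in leaf replicate 4. Its root values were 1369, 847, 19.7 and 468, its male flower values 89.8 to 6433 with a median of 1105, and its female flower values 162 to 2757 with a median of 997. Leaf overlapped every other tissue through leaf replicates 1 and 4, and male libraries divided into 4 at 1105 or more and 3 at 183 or less.

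Zosma89g00040 had the next widest gap, 6.76. Its leaf libraries ran from 0.906 to 481 with a median of 8.31. Root gave 2342, 2221, 91.4 and 2235, male flower 267 to 1747 with a median of 968, and female flower 1252 to 2927 with a median of 2052. Leaf replicate 1 (481) and leaf replicate 4 (99.9) were the only leaf libraries above root replicate 2 for this gene.

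The edge of the list fell among genes with nearly equal gaps. Zosma56g00760 (3.281) and Zosma54g00320 (3.276) were the last inside, and Zosma58g00770 (3.275) and Zosma3g00830 (3.270) the first outside. In Zosma54g00320, leaf ran from 12.8 to 292 scaled fragments with a median of 20.04 and root gave 402, 439, 82.0 and 102. In Zosma58g00770, outside the list, leaf replicates 1 and 4 held 1446 and 1062 against 76.8 to 177 in the other leaf libraries. Zosma3g00830, also outside, did not show this division in full. Leaf replicate 1 held 75.4 in it, while leaf replicate 4, at 10.8, fell within the 4.53 to 10.97 of the remaining 4 leaf libraries, and root replicate 2 (121) lay above root replicates 0 and 1 (79.1 and 84.4).

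Leaf levels were rarely 0. In 141 of the 200 genes no leaf library was at 0, and at most 4 of the 6 leaf libraries were at 0 in any gene. The number of genes at 0 was 38, 0, 17, 18, 3 and 14 in leaf replicates 0 to 5. A count of 0 allows up to 3 fragments, which is 1.74 to 4.25 scaled fragments depending on the leaf library, and this limit covers counting error only. Between the highest and lowest leaf library the median difference was 6.60 in log2 for the 200 genes, from 2.15 to 11.03, against 2.03 for all genes tested.

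Zosma109g00450 had the largest such spread. Its leaf libraries ran from 0 in leaf replicate 0 to 2084 in leaf replicate 1, with 1135 in leaf replicate 4 and a median of 42.2. Root gave 810, 809, 1.71 and 982, male flower 27.1 to 1293 and female flower 1040 to 4090. Root replicate 2 lay below 5 of the 6 leaf libraries for this gene. Zosma18g00380 was similar, at 1538 in leaf replicate 1, 27.9 in leaf replicate 4 and at most 3.99 in the other leaf libraries, with 475, 408, 2.56 and 29.3 in root.

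The genes with the lowest highest leaf value were Zosma92g00250 and Zosma4g01610. Zosma92g00250 was at 0, 2.90, 2.26, 0, 11.7 and 2.72 scaled fragments in leaf replicates 0 to 5. Zosma4g01610 was at 0, 12.2, 0, 0.997, 2.70 and 0.906. Both were therefore low in all 6 leaf libraries, and every root, male and female value lay above every leaf value. In Zosma4g01610 root gave 742, 955, 44.4 and 442, male flower 69.7 to 1861 and female flower 70.8 to 205.

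The 3 upper tissues differed from each other in ways the selection left free in direction but bounded in size, since a gap between them wider than that to leaf would have removed the gene. The range of the 3 upper medians was 0.06 to 5.17 in log2, with a median of 1.83. It was under 1 in 38 genes and at least 2 in 89. Female flower had the highest median in 90 genes (45.0%), male flower in 69 (34.5%) and root in 41 (20.5%). Among all 8486 genes with the 3 medians at 6 or above, the shares were 29.6%, 39.8% and 30.5% in the same order.

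Zosma72g00580 had the narrowest range, 0.06. Its root values were 2169, 2203, 3087 and 2634, its male flower values 1958 to 4929 and its female flower values 1007 to 3627. Leaf ran from 13.6 to 718 with a median of 49.2, with 425 in leaf replicate 1. All 6 leaf libraries lay below all 17 others, and root replicate 2 was the highest root library, whereas it was the lowest root in 172 of the 200 genes. Zosma29g00300, with a range of 0.17, had 333, 324, 72.6 and 270 in root, 131 to 539 in male flower, 233 to 328 in female flower and 6.79 to 198 in leaf.

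Per gene length, the 200 genes covered a wide range of abundance. The lowest upper tissue median was 2.06 to 543 FPKM, with a median of 12.9 over the 200. The median gene stood at 0.514 FPKM in leaf, 20.4 in root, 23.4 in male flower and 27.7 in female flower. Genes with all 3 upper medians at 6 or above stood at 24.2 FPKM in root, 24.0 in male flower and 22.0 in female flower.

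Zosma86g00590 was the most abundant by the lowest upper median, with median FPKM of 15.1 in leaf, 670 in root, 5085 in male flower and 543 in female flower. In scaled fragments, leaf ran from 178 to 20408 with 15672 in leaf replicate 1 and 20408 in leaf replicate 4. Root gave 17217, 12680, 1202 and 11176, male flower 12569 to 177284 and female flower 5201 to 11071. Leaf replicates 1 and 4 exceeded all 6 female libraries for this gene, and the 4 low leaf libraries stood below all others.

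Root was compared with female flower over all genes. The test was limma on log2(scaled fragments + 1), with all 4 tissues in the fit and Benjamini-Hochberg adjustment over the 17445 genes tested. A gene was called at an adjusted p under 0.05 and a difference of at least 2-fold. All 200 passed the filter on low values. Root was higher in 2 of the 200 genes, against 17.6% of all tested, and lower in 18, against 17.7%. Libraries of the 2 tissues did not overlap, with root higher, in 4 genes (19.9% of all) and, with root lower, in 38 (22.0% of all). The median difference of root from female flower was -0.97 in log2 over the 200 and -0.07 over all genes tested.

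Zosma92g00250 was among the genes called lower in root. It stood at 658, 631, 25.6 and 485 scaled fragments in root, at 3195 to 12005 in female flower with a median of 5021, and at 15.7 to 562 in male flower with a median of 188. Every female library lay above every root and male library, and both late female libraries (10975 and 12005) lay above the early ones (3195 to 4943) and early replicate 3 (5099). The difference of root from female flower was -4.41 in log2 (SE 0.993, limma adjusted p = 0.00132).

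Zosma52g01410 stood at 1387, 1015, 12.8 and 117 in root and at 2577 to 8130 in female flower, with a median of 5536, and male flower ran from 126 to 810. Root and female flower did not overlap, and the roots themselves divided into 2 high and 2 low libraries. The difference was -4.44 in log2 (SE 1.45, adjusted p = 0.0187, limma), and it was not called without root replicate 2 (adjusted p = 0.107) or without root replicate 3 (adjusted p = 0.0590).

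The 2 genes called higher in root, named after their values were seen, were Zosma68g00340 and Zosma18g00680. Zosma68g00340 stood at 2053, 2090, 126 and 2547 in root and at 147 to 265 in female flower. Zosma18g00680 stood at 893, 891, 452 and 1035 in root and at 131 to 481 in female flower. In both genes 3 roots lay above all female libraries and root replicate 2 did not.

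These counts rested on single libraries. Without root replicate 2, root was higher in 5 and lower in 1 of the 200, against 16.8% and 13.1% of all genes tested. Without root replicate 3 the counts were 0 and 3, against 14.5% and 12.1%. Without leaf replicate 1 they were 3 and 37, against 18.2% and 20.1%, since all tissues share 1 estimate of the spread. Without leaf replicates 1 and 4 and root replicate 2 together they were 21 and 34, against 18.8% and 18.0%, with a median difference of -0.32. With equal totals per library, root was higher in 1 and lower in 22, against 15.0% and 21.2%, and the median of all genes was -0.30.

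Male flower was compared with female flower in the same fit. Male flower was higher in 27 of the 200 genes, against 26.6% of all tested, and lower in 28, against 27.4%. Without overlap of libraries, male flower was higher in 29 genes (21.2% of all) and lower in 48 (21.6% of all). The median difference was -0.39 in log2 over the 200 and -0.05 over all genes. With all 23 libraries, as in root against female flower, the share called among the 200 was smaller than among all genes, and the median standard error was 0.893 for the 200 against 0.447 for all.

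Zosma277g00020 had the largest called difference toward male flower. It stood at 10822 to 58885 scaled fragments in male flower, with a median of 27704, and at 538 to 1142 in female flower, with a median of 768. Root gave 5259, 2431, 14.5 and 2198, and leaf 11.3 to 4559 with 4125 in leaf replicate 1. All 7 male libraries lay above all others, while leaf replicates 1 and 4 lay above every female library. The difference of male from female flower was 5.02 in log2 (SE 1.33, adjusted p = 0.00242, limma), and from root 4.99 (SE 1.5, limma adjusted p = 0.00676).

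Zosma23g00500 was the next, at 714 to 4482 in male flower with a median of 2602 and at 66.8 to 105 in female flower with a median of 89.2. Root gave 116, 140, 6.84 and 62.7, and leaf 0 to 51.6 with a median of 0.952. Male libraries lay above all others by a wide margin, and female flower fell within the range of root. The difference from female flower was 4.71 in log2 (SE 0.806, limma adjusted p = 2.98e-05).

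Of the genes lower in male flower, Zosma92g00250, described above, differed by -5.69 in log2 (SE 0.855, adjusted p = 5.99e-06, limma) between male and female flower. Zosma201g00140 stood at 21.9 to 779 in male flower with a median of 270, and at 3228 to 9339 in female flower with a median of 6643. Its root values were 2318, 1635, 151 and 443, and its leaf values 5.67 to 5834 with 4697 in leaf replicate 4. Leaf replicates 1 and 4 lay within the range of female flower and above all male and root libraries. The difference of male from female flower was -5.47 in log2 (SE 1.41, adjusted p = 0.00195, limma).

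Without leaf replicates 1 and 4 and root replicate 2 male flower was higher in 42 and lower in 68 of the 200, against 28.0% and 29.4% of all genes. The 68 genes are 34.0% of the 200, so the share called lower stood above that of all genes there and below it with all 23 libraries. With equal totals per library male flower was higher in 14 and lower in 82, against 15.1% and 49.7% of all genes, and the median of the 200 was -1.60 beside -1.18 for all genes.

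**Figure D4:**
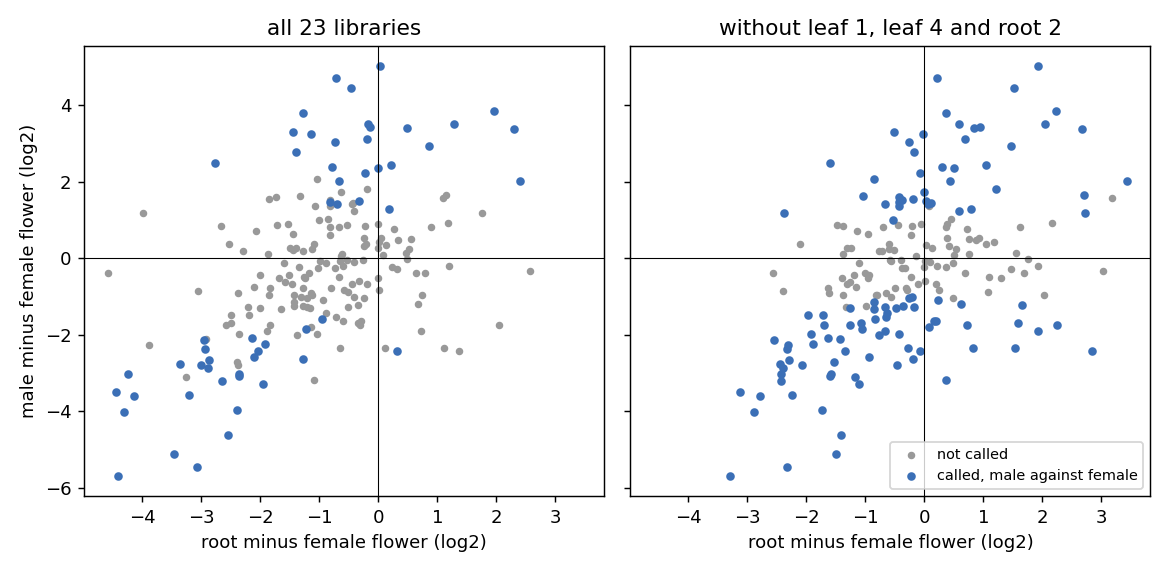
Difference of root (horizontal) and male flower (vertical) from female flower in log2 for each of the 200 genes, with all 23 libraries (left) and without leaf replicates 1 and 4 and root replicate 2 (right); coloured genes were called between male and female flower. The axes share the female libraries. The median gene lies at -0.97 for root on the left and at -0.32 on the right.

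Male flower was also compared with root. Male flower was higher in 38 of the 200 genes and lower in 5, each against 26.3% of all tested. Without overlap of libraries it was higher in 32 (21.2% of all) and lower in 5 (18.4% of all). The median difference was 0.53 in log2 over the 200 and -0.05 over all genes.

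Zosma23g00500 had the largest called difference toward male flower, 5.41 in log2 (SE 0.908, adjusted p = 2.62e-05, limma). Zosma4g00950 stood at 800 to 2196 scaled fragments in male flower with a median of 1929, at 176, 169, 2.56 and 23.6 in root, at 214 to 364 in female flower and at 0 to 110 in leaf. Male flower lay above female flower and female flower above root, without overlap. Leaf replicate 1 (110) lay above root replicates 2 and 3. Leaf replicates 3, 4 and 5 (5.98, 3.60 and 2.72) also lay above root replicate 2. The difference of male flower from root was 5.25 (SE 0.972, adjusted p = 8.17e-05, limma).

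Toward root, Zosma225g00200 stood at 13512, 12035, 7786 and 14753 in root and at 45.2 to 1677 in male flower with a median of 1324. Female flower ran from 935 to 6489, with all 3 early libraries (3229 to 6489) above early replicate 3 (2462) and both late ones (1982 and 935). Root lay above every library of the other tissues, root replicate 2 included. The difference of male flower from root was -3.78 in log2 (SE 1.05, adjusted p = 0.00388, limma).

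Zosma11g00540 stood at 11594, 8671, 2518 and 5873 in root, at 36.1 to 1834 in male flower and at 1275 to 8530 in female flower. Leaf replicates 1 and 4 held 2612 and 6415 against 14.5 to 406 in the other leaf libraries. Male flower and root did not overlap, with a difference of -3.46 (SE 1.42, adjusted p = 0.0411, limma). It was not called without male replicate 0 (adjusted p = 0.0725), male replicate 1 (0.0867), root replicate 0 (0.0983), root replicate 1 (0.0866) or root replicate 3 (0.0719).

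The median difference between male flower and root changed sign with root replicate 2. Without it, male flower was higher in 19 and lower in 10 of the 200, against 25.0% and 26.3% of all genes, and the median was -0.24, beside -0.09 for all genes. Without it and leaf replicates 1 and 4 together, male flower was higher in 45 and lower in 40, against 26.8% and 28.7%, and the median was again -0.24. Estimated library weights gave 41 and 65, against 29.1% and 32.9%, with a median of -0.39 beside -0.11 for all genes. With equal totals per library the counts were 16 and 12, against 16.2% and 43.1%. That scaling moved all genes alike, and the median of the 200 lay 0.54 above that of all genes (-0.42 and -0.96), as against 0.58 above it in the deposited scaling.

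Over the 3 comparisons, which share libraries, 76 of the 200 genes (38.0%) were called in at least 1 and 124 in none, against 74.5% of all genes called in at least 1. Without leaf replicates 1 and 4 and root replicate 2, 138 of the 200 (69.0%) were called in at least 1 and 62 in none, against 76.5% of all genes. The median standard error of the 200 was 1.04 with them and 0.549 without them for root against female flower.

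**Figure D5:**
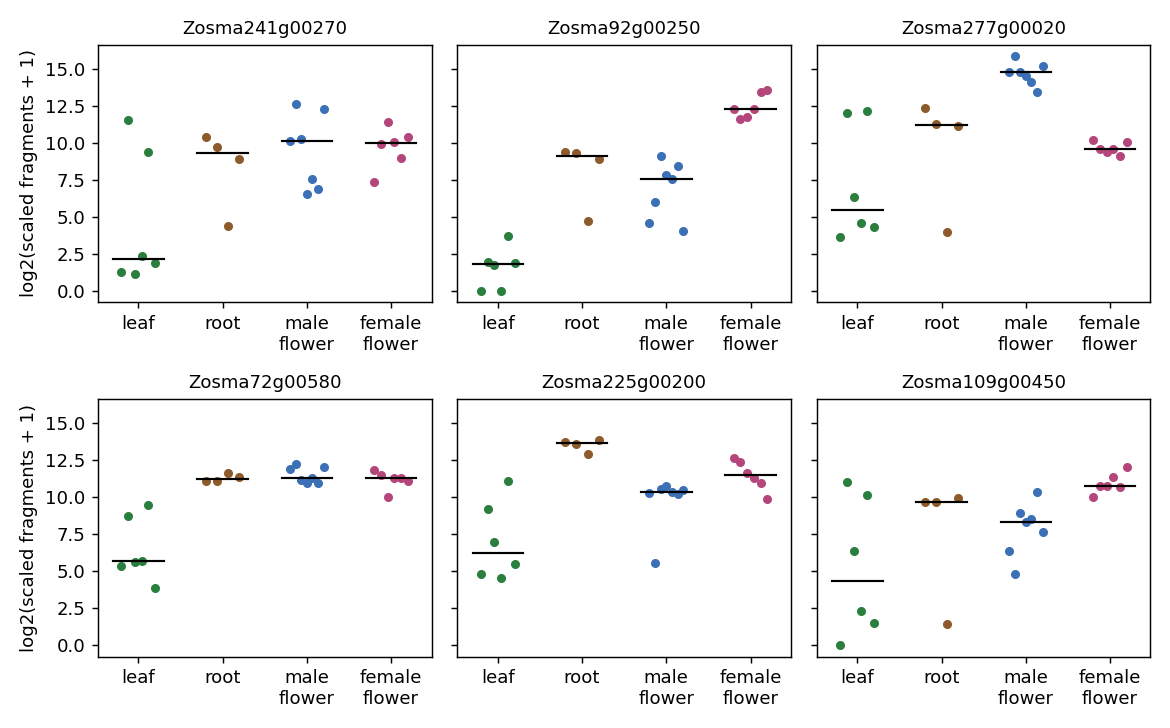
Values of 6 of the genes in every library, as log2(scaled fragments + 1), with 1 point per library and a line at the tissue median. Zosma92g00250 is low in all leaf libraries, and Zosma72g00580 is level across root and flowers. Zosma241g00270, Zosma277g00020 and Zosma109g00450 each have leaf replicates 1 and 4 near the other tissues and 1 root library near the low leaf libraries. In Zosma109g00450, leaf replicate 2 (80.3 scaled fragments) also lies within the range of male flower (27.1 to 1293).

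Between female stages the selection kept differences within 2 in log2, so they are given as a description. The difference of the later from the earlier female libraries, with early replicate 3 counted as late as its tissue label says, ran from -1.91 to 1.93 with a median of 0.02. It lay within 1 in 157 genes, above 1 in 14 and below -1 in 29. Female flower was also the most even tissue. The median standard deviation of the 200 genes in log2 was 0.457 over female libraries, 0.889 over male, 1.60 over root and 2.63 over leaf, against 0.363, 0.741, 0.546 and 0.791 for all genes tested.

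The 200 identifiers came from 123 identifier stems, the part before the letter g, with at most 7 on 1 stem. A single pair had consecutive numbers, Zosma80g00450 and Zosma80g00460. Lists selected in the same way for other patterns held 0 to 10 such pairs. The 2 genes had a Pearson correlation of 0.977 over the 23 libraries as a description, since the libraries share tissues. The sequences were not used here, so reads shared between near-identical copies could make such values uncertain.

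Zosma80g00450 stood at 7408, 6400, 199 and 5195 scaled fragments in root, 784 to 19975 in male flower, 1998 to 4781 in female flower and 17.0 to 2492 in leaf. Zosma80g00460 stood at 8958, 7803, 321 and 7311 in root, 723 to 9668 in male flower, 2242 to 3790 in female flower and 36.2 to 1621 in leaf. In both genes leaf replicate 1 was the highest leaf library, root replicate 2 the lowest root and male replicate 5 the highest male library. With all 23 libraries neither was called in any of the 3 comparisons. Without leaf replicates 1 and 4 and root replicate 2, Zosma80g00460 was called higher in root than in female flower (1.47 in log2, SE 0.514, limma adjusted p = 0.0269). It was also called lower in male flower than in root (-1.75, SE 0.501, limma adjusted p = 0.00519). With all 23 libraries these differences were 0.31 and -0.59. Root replicate 2, the lowest root here, was left out after its values were known. That raised the root mean, so the p-values without it are a description.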

How the data were processed

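Per the labels' protocols, polyadenylated RNA was sequenced as paired ends. TopHat2 2.0.12 is named in the submitters' processing notes, as are Cuffdiff 2.2.1 and Cuffnorm 2.2.1, without role or order. The sources used here do not give the genome build, the annotation or the use of strand. The table deposited by the authors as counts holds a scaled signal, in which fragments per gene are multiplied by 1 factor per library, called scaled fragments here. The second deposited table holds FPKM, fragments per length and library total, and was used for levels per length and as an alternative.

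The 200 genes, the lists and the tests were chosen with earlier results of these data known. Groups came from the titles. Log2(scaled fragments + 1) was fitted with limma (version 3.58.1, R version 4.3.3; lmFit and eBayes, robust, with a trend) over 23 libraries and 4 tissues, and the 3 contrasts among root, male and female flower were tested, with Benjamini-Hochberg adjustment over 17445 genes. The pseudocount of 1 understates differences of low genes. The steps were tested on simulated data. Python 3.11.15, numpy 2.4.6, pandas 2.3.3 and matplotlib 3.10.9 served for tables and plots.

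Genes named are those with the 2 widest and 2 narrowest gaps, the first 2 outside, and the 2 highest in FPKM, most even over the upper tissues, most spread over leaf and lowest in leaf. Also named are the 2 largest called differences per contrast and direction without overlap of libraries, and neighbours by number. The deposited values are scaled and were not converted to whole counts for testing, so the planned test on counts was not run. Planned lists of cell type and product names were not analysed, since no names were given. The alternatives tried were the FPKM table, other scalings, pseudocounts and filters, library weights, fewer tissues in the fit, the number in the title as a block, and libraries left out.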

Additional observations from a re-analysis of the deposited data

Results flagged for a closer look

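In 10 of 88 groups examined (20 named genes, the median level and the summed share of the 200 genes, each in 4 tissues), a single library lay far from the rest of its tissue by Dixon's criterion, which chance meets in about 1 in 20 groups. The genes were picked from these data and share the same libraries, so the groups are not independent. The count of 10 therefore cannot be set against that rate. In 8 of the 10 groups the library was root replicate 2. It stood at 91.4 scaled fragments in Zosma89g00040 (other roots 2221 to 2342), 25.6 in Zosma92g00250 (485 to 658), 14.5 in Zosma277g00020 (2198 to 5259) and 1202 in Zosma86g00590 (11176 to 17217). It stood at 72.6 in Zosma29g00300 (270 to 333), 1.71 in Zosma109g00450 (809 to 982), 199 in Zosma80g00450 (5195 to 7408) and 321 in Zosma80g00460 (7311 to 8958). In the remaining 2 the library was male replicate 1, at 267 in Zosma89g00040 (other male libraries 860 to 1747) and at 45.2 in Zosma225g00200 (1197 to 1677). Leaf replicates 1 and 4 escape this criterion where they lie apart together, since it looks at the gap of 1 library to its nearest neighbour.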

How the results depend on the processing

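Counts of genes called among the 200 are given as higher and lower, beside 2 and 18 for root against female flower, 27 and 28 for male against female flower, and 38 and 5 for male flower against root. Values within 1.5 times of these are left out unless they complete a pair. Shares of all genes tested stand in brackets, in the same order. For root against female flower, a pseudocount of 0.1 gave 9 lower (15.5%) and a pseudocount of 10 gave 5 and 30 (16.8% and 17.3%). Quantile normalization gave 5 and 46 (18.1% and 21.9%) and equal totals 1 higher (15.0%). The fit without the library of conflicting stage labels gave 1 and 11 (16.9% and 15.7%). Only the compared tissues gave 5 and 57 (19.1% and 22.2%), and library weights 30 and 32 (21.8% and 21.6%). Leaf replicates 1 and 4 and root replicate 2 removed together gave 21 and 34 (18.8% and 18.0%). For male against female flower, a pseudocount of 10 gave 45 lower (25.4%), quantile normalization 60 lower (30.6%) and equal totals 14 and 82 (15.1% and 49.7%). Only the compared tissues gave 43 and 66 (27.6% and 29.0%). Library weights gave 46 and 61 (28.6% and 30.5%), and the joint removal 42 and 68 (28.0% and 29.4%). For male flower against root, a pseudocount of 10 gave 8 lower (24.6%), quantile normalization 10 lower (28.1%) and equal totals 16 and 12 (16.2% and 43.1%). Only the compared tissues gave 11 lower (25.7%), library weights 65 lower (32.9%), and the joint removal 40 lower (28.7%). The joint removal was chosen after seeing the data. The cause of these moves was not tested. The weights' estimation gave a convergence warning.

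Leaving out each library in turn gave 0 to 5 higher and 1 to 37 lower for root against female flower, 24 to 31 and 21 to 43 for male against female flower, and 19 to 51 and 2 to 10 for male flower against root. In those fits the shares of all genes tested were 14.5% to 18.2% and 12.1% to 20.1% for root against female flower. They were 25.8% to 27.3% and 26.1% to 28.3% for male against female flower. For male flower against root they were 24.8% to 27.1% and 24.3% to 27.5%. With the title number as a replicate block, 7 genes were lower in root than in female flower, against 15.9% of all. In male flower 15 were lower than in female flower, against 26.2% of all. The labels do not say whether the numbers pair the samples. Same-numbered libraries had correlations of -0.41 to 0.52 between their deviations, over 0.1 in 8 of 32 pairs. Their median was 0.004, against -0.011 for the other pairs of libraries. A pairing of only some samples cannot be told from these values. The thresholds of the selection were met by 170 to 200 of the genes with each library left out, 149 with quantile normalization, 185 with equal totals and 160 with means in place of medians. Of 350 alternatives for the 10 named differences, 343 kept the call, 7 lost it and 0 reversed. These differences were picked as the largest called ones without overlap of libraries in the same data. Many of the alternatives left out a library of a tissue not compared. The 343 are therefore a description and do not carry over to the other genes. The planned edgeR test was not run, since the deposited values are scaled and were not converted to whole counts for it. Depth limits the leaf levels, where the median gene had 4 to 5.50 fragments in 4 libraries.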
